A study of Mus musculus with 30 samples.

Results

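Whole-brain transcriptomes of Arid1b heterozygous and wild-type mice were compared in adults that had all received fluoxetine early in life. The samples were the 10 libraries of the fluoxetine arm, 5 heterozygous (HT-Flx) and 5 wild-type (WT-Flx), out of 30 in the series. They were selected by their labels alone. All 10 animals were C57BL/6N males whose brains were taken at postnatal day 120 (P120), 1 mouse per library. Pups of both genotypes received the drug through their dams, which drank 0.1 mg/ml fluoxetine hydrochloride in 0.2% saccharin from P3 to P21, and plain water was given afterwards. The HT-Flx mice carried 1 Arid1b allele (em1Tcp) in which exon 5 had been targeted with a CRISPR/Cas9 nickase. The drug was thus given indirectly, and litters were not recorded in the sources used here. The comparison asks what the genotype changed under the drug. The vehicle groups at P120 (HT-Veh and WT-Veh, 5 each, saccharin water without drug) are quoted where the genotype difference was compared between treatments. Untreated heterozygous and wild-type brains at postnatal day 10 (P10, 5 each) are quoted for Tmem181b-ps only. P-values measure the spread between these 5 and 5 brains, some of which may share a litter.

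ARID1B is a DNA-binding subunit of the BAF (SWI/SNF) complex, which moves nucleosomes and so opens or closes regulatory DNA. Loss of 1 copy in people causes Coffin-Siris syndrome and is among the more frequent single-gene causes of intellectual disability and autism spectrum disorder (ASD). Fluoxetine blocks the serotonin transporter and raises extracellular serotonin. Class IIa histone deacetylases such as HDAC4 bind MEF2 transcription factors and repress their targets, which include regulators of synapse number.

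The targeted exon is shown first because it defines the genotype. In the transcript Arid1b-202 exon 5 spans chr17:5242828-5243071 (GRCm38, plus strand), lies wholly in coding sequence, is 244 bases long and is 59.0% G or C. Capitals mark G and C in every sequence shown.
Arid1b exon 5: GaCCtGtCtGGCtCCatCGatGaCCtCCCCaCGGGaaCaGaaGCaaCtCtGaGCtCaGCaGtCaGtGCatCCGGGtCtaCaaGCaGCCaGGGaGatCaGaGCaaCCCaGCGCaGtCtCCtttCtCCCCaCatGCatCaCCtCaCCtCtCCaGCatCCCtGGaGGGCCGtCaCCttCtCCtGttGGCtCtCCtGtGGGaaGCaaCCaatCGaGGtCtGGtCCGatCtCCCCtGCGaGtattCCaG

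Arid1b transcripts (chr17:4994332-5347656) were lower in HT-Flx brain. The 5 HT-Flx libraries held 2164, 2554, 2171, 2616 and 2356 normalised reads, and the 5 WT-Flx libraries held 3392, 3305, 3166, 2961 and 2963. The groups did not overlap, the highest HT-Flx library lying below the lowest WT-Flx library. Mean levels were 2372 ± 210 and 3158 ± 196 (SD, n = 5 each), a ratio of 0.751. The log2 difference was −0.41 ± 0.08 (SE; limma adjusted p = 0.000801), and a two-sided exact permutation test gave 0.00794, the smallest p that 5 against 5 allows. After the correction for GC content described below, the log2 difference was −0.88 ± 0.09. With vehicle the log2 difference was −0.29 (limma adjusted p = 0.991), and HT-Veh libraries held 2342, 3361, 1973, 2480 and 2227 normalised reads where WT-Veh libraries held 3171, 2320, 3036, 3224 and 3229. In replicate 2 of each vehicle group the Arid1b level went against the label, and without these 2 libraries the difference was −0.49 ± 0.13 (adjusted p = 0.9999). The change in the genotype difference of Arid1b between fluoxetine and vehicle did not pass the test (limma interaction adjusted p = 0.586).

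Genes beside Arid1b on chromosome 17 were examined next. Of 18 tested neighbours, 5 were called higher and 3 lower, against 33.1% and 30.5% of all genes. Tmem181a, a transmembrane protein gene, held 4291, 4135, 4344, 3958 and 4275 normalised reads in HT-Flx against 3456, 3428, 3590, 3571 and 3524 in WT-Flx. On the deposited scale all HT-Flx libraries were above all WT-Flx libraries. The log2 difference was 0.26 ± 0.06 as deposited and 0.64 ± 0.08 after the GC correction. Rescaling to equal library sums moved the median of all genes from 0.02 to −0.23, so the deposited difference of Tmem181a depends on the scale. Its pseudogene copy Tmem181b-ps was also higher without overlap (0.33 and 0.49), and reads of the 2 copies may not be fully separable. Serac1, which encodes a protein of phosphatidylglycerol remodelling, was lower without overlap (−0.72 and −0.55), while Zdhhc14, a palmitoyltransferase gene, was higher as deposited (0.55) and no longer differed after the correction (−0.05, adjusted p = 0.635). Tiam2, a Rac exchange factor gene, was lower by both (−0.71 and −0.77), although its groups overlapped. At P10, with no treatment, Tmem181b-ps was likewise higher in the heterozygotes (6711 to 7932 against 4871 to 5086 normalised reads). Among the vehicle libraries it also went against the label in replicate 2, at 4562 in HT-Veh and 7417 in WT-Veh. Whether these 2 libraries were exchanged was not tested, and the labels were kept.

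**Figure D1:**
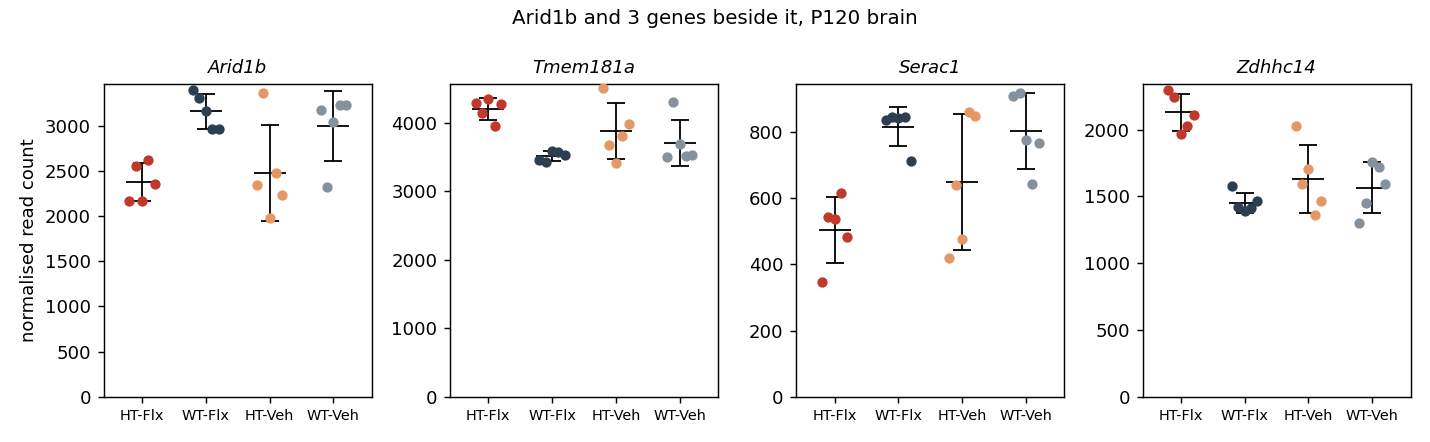
Normalised read counts (y axis, linear from 0) of Arid1b, Tmem181a, Serac1 and Zdhhc14 in the 4 groups of P120 brains (x axis); each point is 1 library, with the group mean and SD as bars (n = 5). Arid1b and Serac1 are lower and Tmem181a and Zdhhc14 higher in every HT-Flx library than in any WT-Flx library, whereas the vehicle groups overlap for all 4 genes.

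A property of the libraries ran through the whole comparison and was measured before any gene group was read. For each library the log2 deviation of every gene from the 10-library mean was regressed on the GC content of the gene's transcripts. The slopes per 10 percentage points of GC were 0.67, 0.37, 0.47, 0.27 and 0.25 in HT-Flx against −0.37, −0.46, −0.45, −0.39 and −0.36 in WT-Flx. The 2 groups were completely separated, so GC slope and genotype cannot be told apart in this comparison. On a scale set by the mean of the WT-Veh libraries, HT-Flx slopes lay between 0.39 and 0.80 and WT-Flx slopes between −0.32 and −0.23. HT-Veh slopes ran from −0.30 to 0.53, reaching the slopes of both drug groups, and WT-Veh slopes from −0.18 to 0.29, between those of the drug groups. The normalised values also summed to more in HT-Flx (37083545 to 41522113) than in WT-Flx (32484635 to 33588499), and more genes stood at 0 (143 to 201 against 78 to 117).

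Transcripts of low and high GC content that moved in opposite directions are shown to make this contrast visible, as 120 bases from the middle of the coding sequence of 4 genes: Thoc2 and Gria2, lower in HT-Flx, and Kcng4 and Nlgn2, higher. Thoc2 and Kcng4 were the most AT-rich and most GC-rich of the 12 leading genes in each direction with a mean of at least 500. Gria2 and Nlgn2 are synaptic genes that were chosen by hand and not by that rule. All 4 lie on the minus strand: Thoc2 at chrX:41794991-41920674, Gria2 at chr3:80681450-80802835, Kcng4 at chr8:119623854-119635680 and Nlgn2 at chr11:69823122-69837784 (GRCm38).
Thoc2: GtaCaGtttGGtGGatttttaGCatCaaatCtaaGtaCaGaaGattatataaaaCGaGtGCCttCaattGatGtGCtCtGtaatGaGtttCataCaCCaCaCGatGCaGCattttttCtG
Gria2: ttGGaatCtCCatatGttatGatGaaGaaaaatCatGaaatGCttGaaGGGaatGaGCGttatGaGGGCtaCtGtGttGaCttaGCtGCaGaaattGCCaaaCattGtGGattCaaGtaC
Kcng4: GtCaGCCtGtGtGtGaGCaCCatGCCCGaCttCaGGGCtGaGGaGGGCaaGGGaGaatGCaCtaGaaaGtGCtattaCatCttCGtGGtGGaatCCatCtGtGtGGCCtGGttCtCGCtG
Nlgn2: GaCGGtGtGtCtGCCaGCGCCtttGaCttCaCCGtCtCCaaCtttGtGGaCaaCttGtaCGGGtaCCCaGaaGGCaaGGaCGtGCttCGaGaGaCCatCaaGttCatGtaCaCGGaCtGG
The coding sequences as a whole were 39.5% GC in Thoc2, 44.7% in Gria2, 61.7% in Kcng4 and 62.7% in Nlgn2.

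Of 17799 genes with a mean of at least 10 normalised reads, 11330 (63.7%) differed between HT-Flx and WT-Flx, 5893 (33.1%) higher and 5437 (30.5%) lower in HT-Flx, and the groups did not overlap for 8627 (48.5%). When values were rescaled to equal library sums, the median of all genes moved from 0.02 to −0.23 and the split became 3784 higher and 7313 lower. Directions below are therefore to be read against the median of all genes. The change followed GC content closely. In the decile of genes lowest in GC (up to 42.3%), the median log2 difference was −0.93, with 1334 of 1779 genes lower and 52 higher. In the decile highest in GC (from 58.6%), it was 0.73, with 1428 of 1779 higher and 21 lower. Each library's mean deviation was then subtracted within 20 bins of GC content, which removes any genotype effect that follows GC content along with the slope. After this correction the decile medians lay between −0.08 and 0.06, and 6659 genes (37.4%) differed, 3690 (20.7%) higher and 2969 (16.7%) lower, with 4488 (25.2%) not overlapping. Of the 11330 genes, 4690 were called in the same direction by both readings, 2534 higher and 2156 lower. A further 312 were called in opposite directions.

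**Figure D2:**
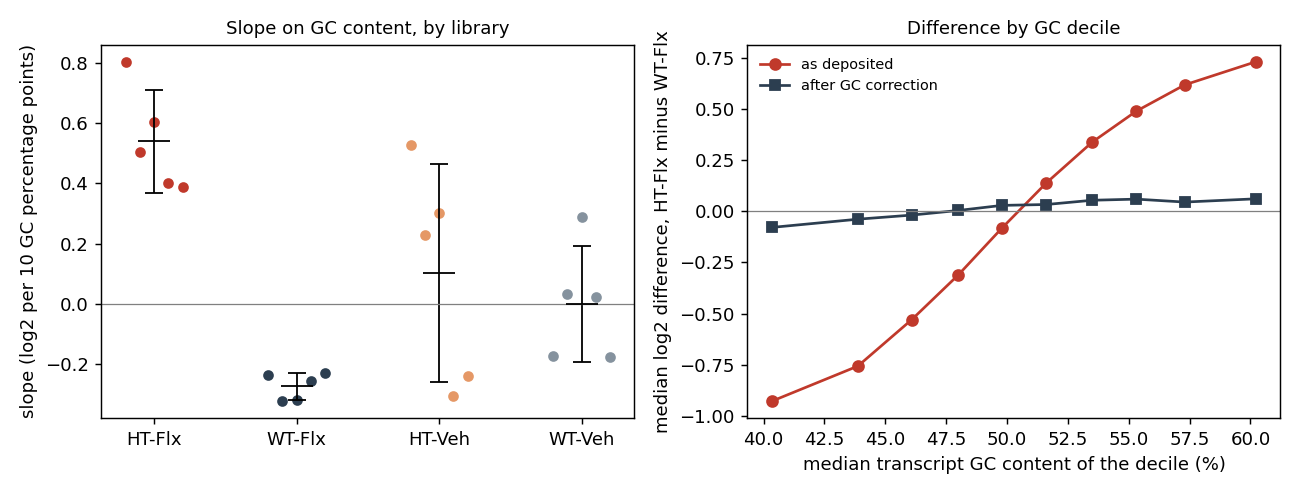
Left, slope of each library on transcript GC content (log2 per 10 percentage points, against the WT-Veh mean) in the 4 P120 groups, points being libraries and bars the mean and SD (n = 5). Right, median log2 difference between HT-Flx and WT-Flx in each decile of genes by GC content, as deposited and after the correction. HT-Flx and WT-Flx slopes do not overlap, and the median difference runs from −0.93 to 0.73 across the deciles as deposited and stays between −0.08 and 0.06 after correction.

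The 12 genes lowest in HT-Flx relative to WT-Flx, by the naming rule, were Ttc14, Thoc2, Pnisr, Hgf, Postn, Hook1, Atrx, Vmn2r84, Agmo, Atr, Casp8ap2 and Amy1, with log2 differences of −2.01 to −1.80. Their transcripts were all AT-rich, at 35.9 to 44.3% GC. All 12 stayed lower after the GC correction, at −1.22 to −0.91, and the groups of 9 did not overlap then. The genes were chosen for large, non-overlapping differences, so these values only describe them. Thoc2, a subunit of the THO complex that couples transcription to mRNA export, held 294, 497, 292, 708 and 482 normalised reads in HT-Flx against 1509, 1579, 1599, 1549 and 1634 in WT-Flx. Atrx, a SWI/SNF-family chromatin remodeller mutated in X-linked intellectual disability, held 1011, 2431, 1127, 2913 and 2265 in HT-Flx against 6125, 6749, 7151, 6273 and 5753 in WT-Flx. Pnisr, a splicing-associated serine/arginine-rich protein gene, held 1971, 2908, 1629, 4244 and 2943 against 9109, 10275, 10024, 9037 and 8763. In all 3 genes HT-Flx libraries 1 and 3 were the lowest of the 10, and these 2 libraries also had the steepest GC slopes. Thoc2 fell by 1.87 as deposited and by 0.98 after correction on the log2 scale, Atrx by 1.84 and 1.19, and Pnisr by 1.86 and 1.06.

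The 12 leading higher genes were Gm21985, Gm14434, Gm49450, Hoxb5, Aqp6, Tlx3, Lbx1, Kcng4, Rln3, Pax2, Pkp3 and E2f2, with log2 differences of 1.58 to 3.88. Hoxb5, Tlx3, Lbx1 and Pax2 encode developmental transcription factors of the hindbrain and spinal cord, and Rln3 a neuropeptide of a pontine nucleus. After the GC correction 7 of the 12 were called and 4 kept non-overlapping groups. Hoxb5 held 313, 341, 263, 373 and 381 normalised reads in HT-Flx against 138, 14, 105, 203 and 67 in WT-Flx. Kcng4, a modifier subunit of voltage-gated potassium channels, held 3908, 4373, 3315, 4698 and 5176 against 1912, 406, 1577, 2527 and 994. In both genes every HT-Flx library was higher, and WT-Flx replicates 2 and 5 were the lowest of all 10. E2f2, a cell-cycle transcription factor gene, differed without that pattern (114, 62, 63, 127 and 57 against 24, 18, 35, 25 and 31) and stayed higher after correction (1.58 to 1.03, adjusted p = 0.00647). Gm14434, Gm21985 and Gm49450 are gene models that may share reads with similar copies, and Gm14434 and Gm21985 stood at 0 in 1 and 2 WT-Flx libraries. With each library left out in turn, Hoxb5, Kcng4, Tlx3, Lbx1, Pax2, Rln3, Aqp6, Pkp3 and Gm14434 differed least without WT-Flx replicate 2. Tlx3 then stood at 1.15 and Lbx1 at 1.18, and Tlx3 lost its call in 1 of the 10 fits.

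After the correction the 6 genes that led on the higher side were Gm14434, Gm21985, Iltifb, Gm49450, Sycp1 and mt-Co3, and on the lower side Kcna3, Gm26566, Rarb, Col19a1, Gm21887 and Klhl34. Kcna3, the voltage-gated potassium channel Kv1.3, held 57, 144, 54, 143 and 113 normalised reads in HT-Flx against 229, 243, 249, 202 and 252 in WT-Flx. All HT-Flx libraries were below all WT-Flx libraries although its transcripts are GC-rich (60.3%), and the difference was −1.31 as deposited and −2.02 after correction. Rarb, a retinoic acid receptor of striatal neurons, held 146, 209, 146, 209 and 167 against 485, 542, 449, 225 and 600, a difference of −1.33 as deposited and −1.66 after correction. Col19a1, a collagen gene expressed by hippocampal and subicular interneurons, held 147, 232, 108, 280 and 178 against 497, 602, 513, 440 and 463. The difference was −1.48 and −1.62. All 3 were lower by either reading, while the median difference of genes of like GC content lay above 0.

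Genes of the HDAC4/MEF2 axis moved in both directions, and fewer passed the test after the correction. Of 9 tested members, 6 were higher and 3 lower as deposited, and 1 was higher and 3 lower after correction. The shares called over all genes, 33.1% higher and 30.5% lower as deposited and 20.7% and 16.7% after correction, are the background for this and each list that follows. Mef2a, a transcription factor that restricts excitatory synapse number, held 1709, 2770, 1827, 3286 and 2839 normalised reads in HT-Flx against 4591, 5294, 4959, 4357 and 5096 in WT-Flx. The groups were far apart, with a log2 difference of −1.01 ± 0.17 (adjusted p = 0.000228) as deposited and −0.54 ± 0.12 (adjusted p = 0.00434) after correction. Hdac4 held 3524, 4121, 3536, 3321 and 3694 in HT-Flx against 3042, 2345, 2344, 2035 and 2103 in WT-Flx, without overlap. Its log2 difference was 0.63 ± 0.11 as deposited and 0.08 ± 0.11 after correction (adjusted p = 0.62). Hdac5, its close relative, was higher by 0.97 and still by 0.27 after correction, while Mef2d was higher by 0.81 and not called at 0.16. Arc, the activity-induced regulator of AMPA receptor endocytosis, held 9303, 12983, 8748, 8784 and 4718 against 4738, 7437, 5604, 5982 and 4848. Its difference was 0.59 as deposited and −0.06 after correction (adjusted p = 0.851).

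**Figure D3:**
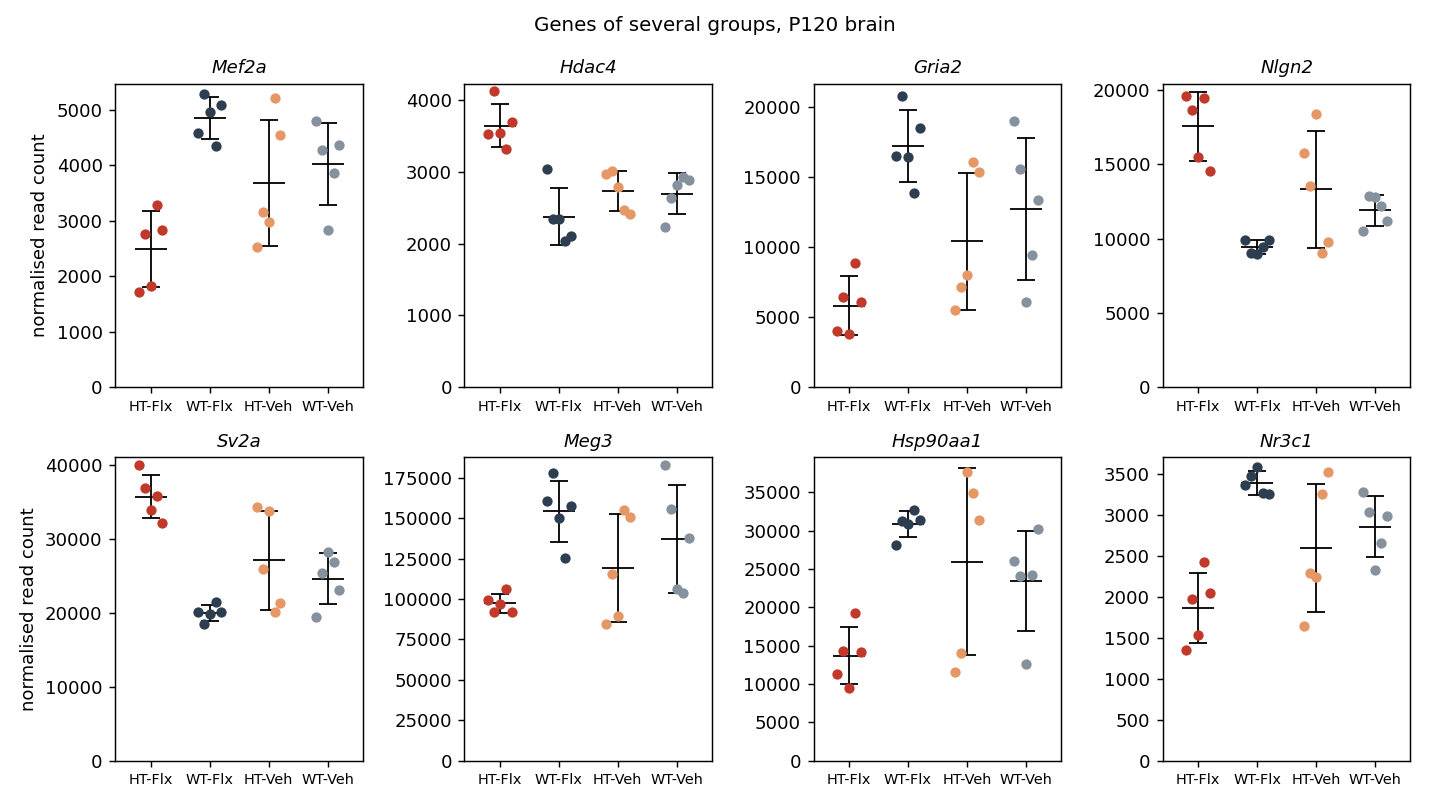
Normalised read counts (y axis, linear from 0) of 8 genes in the 4 groups of P120 brains (x axis); points are libraries, bars the group mean and SD (n = 5). The HT-Flx and WT-Flx libraries do not overlap for any of the 8 genes, while the HT-Veh and WT-Veh libraries overlap for each.

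Of 52 excitatory synapse genes tested, 24 were higher and 18 lower as deposited, with a median log2 difference of 0.15, and 8 were higher and 13 lower after correction, with a median of −0.02. These shares, 46.2% and 34.6% as deposited and 15.4% and 25% after correction, stand beside those of all genes (33.1% and 30.5%, 20.7% and 16.7%). Gria2, the AMPA receptor subunit that limits calcium entry, held 4010, 6424, 3758, 8871 and 6044 normalised reads in HT-Flx against 16485, 20797, 16440, 13842 and 18466 in WT-Flx. Every HT-Flx library was lower, and the difference was −1.62 as deposited and −0.73 after correction. Nlgn2, an adhesion molecule of inhibitory synapses that both synapse lists hold, held 19594, 18656, 15530, 19445 and 14590 against 9938, 9016, 8997, 9415 and 9885. It was higher by 0.88 as deposited and by 0.18 after correction, without overlap by either reading. Grm2, a presynaptic metabotropic glutamate receptor, was higher by 1.05 and 0.49.

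Of 49 presynaptic release genes 26 were higher (53.1%) and 16 lower (32.7%), and after correction 18 (36.7%) and 8 (16.3%). The higher shares exceeded those of all genes (33.1%, and 20.7% after correction), and the lower shares lay near them (30.5% and 16.7%). The list medians were 0.40 and, after correction, 0.007, beside 0.02 for all genes by either reading. In the decile of genes with the highest level 63.8% were higher, and 42.9% after correction. The list was not compared with genes of like level. Sv2a, the synaptic vesicle glycoprotein bound by levetiracetam, held 39975, 36862, 33873, 35871 and 32218 in HT-Flx against 20097, 18475, 19830, 21516 and 20198 in WT-Flx. All HT-Flx libraries were higher, by 0.83 as deposited and 0.50 after correction (adjusted p = 0.000181). Rims3, an active-zone protein gene, was higher by 0.97 and 0.50. Of 30 inhibitory synapse and GABA receptor genes 19 were lower (63.3%, beside 30.5% of all genes) and 7 higher, with a median of −0.68. After correction 8 were lower (26.7%, beside 16.7%) and 5 higher, with a median of −0.22. Gabrg1, a GABA-A receptor subunit gene of low GC content (34.7%), was lower by 1.21 on the log2 scale as deposited and 0.32 after correction. Slc6a11, the GABA transporter GAT-3 of astrocytes, was higher by 0.89 and 0.56. Among 47 voltage-gated ion channel genes, 17 were higher and 22 lower, and after correction 6 (12.8%) and 14 (29.8%). Hcn2, a pacemaker channel gene, was higher by 1.19 and 0.49, and Scn2b, a sodium channel beta subunit gene, by 0.56 and 0.61.

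FMRP targets, brain mRNAs bound by the fragile X protein, and ASD risk genes were read as lists. Of 111 FMRP targets, 53 were higher and 40 lower as deposited, with a median of 0.18, and 23 (20.7%) were higher and 33 (29.7%) lower after correction, with a median of −0.09. Map1a, a microtubule-associated protein of dendrites, held 87756, 92848, 83126, 94811 and 83974 normalised reads in HT-Flx against 52478, 49063, 46362, 50019 and 48459 in WT-Flx. The groups were well apart, with differences of 0.84 and 0.38. ASD risk genes were more often lower by either reading: 45 of 93 lower and 25 higher as deposited (median −0.28), and 36 lower and 11 higher after correction (median −0.19), beside 16.7% lower and 20.7% higher among all genes.

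Of 30 BAF subunit genes, 14 were higher (46.7%) and 10 lower (33.3%) as deposited, and 4 were higher (13.3%) and 9 lower (30%) after correction, beside 33.1%, 30.5%, 20.7% and 16.7% of all genes. Ss18, a subunit of the BAF ATPase module, held 482, 624, 483, 777 and 574 normalised reads in HT-Flx against 1270, 1301, 1239, 1417 and 1147 in WT-Flx, a difference of −1.14 and, after correction, −0.76. Dpf2, a histone-reading BAF subunit gene, was higher by 0.65 and 0.32, and Smarcb1, a core subunit gene, by 0.78 and 0.32. Smarca4, the ATPase BRG1, was higher by 0.51 as deposited and stood at 0.04 after correction (adjusted p = 0.628). Of 53 histone-modifying enzyme genes 21 were higher and 24 lower, and 8 and 12 after correction. Kdm1b, a histone H3 lysine demethylase gene, was lower by both readings (−1.02 and −0.37), and Kmt2b, a histone methyltransferase gene, was higher only as deposited (0.70 and 0.06).

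Genes of protein synthesis and respiration were called higher in a larger share than all genes, of which 33.1% were higher as deposited and 20.7% after correction. Calls followed level too: in the decile of highest level 63.8% were higher, and 42.9% after correction. These lists were not compared with genes of like level. Of 80 cytosolic ribosomal protein genes, 57 were higher (71.2%) and 3 lower, and after correction 39 (48.8%) and 6, with medians of 0.53 and 0.34. Rpl5 was among those lower, at 298, 234, 306, 412 and 373 normalised reads in HT-Flx against 823, 815, 732, 748 and 782 in WT-Flx (−1.29 and −0.82). Ribosomal protein genes have many processed copies, so reads may be split between them. Of 78 mitochondrial ribosomal protein genes 43 were higher (55.1%) and 6 lower, and after correction 36 (46.2%) and 5. Mrps6 was among them (0.78 and 0.45). Of 76 nuclear genes for oxidative phosphorylation subunits 53 were higher (69.7%) and 4 lower, and after correction 40 (52.6%) and 5. Cox5a, a cytochrome c oxidase subunit gene of average GC content (49.0%), held 4787, 4427, 4224, 4373 and 4368 against 2926, 2561, 2825, 3152 and 2762. It was higher by 0.64 as deposited and 0.80 after correction, and Uqcrc1, of complex III, by 1.01 and 0.45.

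Transcripts encoded by the mitochondrial genome are AT-rich (median 37.1% GC). Of 13 tested, 7 were higher and 1 lower as deposited, and 12 were higher and none lower after correction, with medians of 0.43 and 1.28. The count of 12 rests on a correction that raises AT-rich genes as a class in HT-Flx. mt-Co3, a cytochrome c oxidase subunit, held 133920, 86073, 122135, 107320 and 141555 normalised reads in HT-Flx against 77643, 49715, 39094, 70600 and 57315 in WT-Flx. mt-Nd1, of complex I, held 197700, 128068, 164571, 144544 and 123105 against 95707, 107194, 95332, 99260 and 103133. HT-Flx was above WT-Flx in every library for both genes. The differences as deposited were 1.03 for mt-Co3, 0.92 for mt-Atp6 and 0.58 for mt-Nd1. The share of all normalised reads from the mitochondrial genome nevertheless overlapped between groups, at 3.93 to 5.41% in HT-Flx against 4.62 to 4.90% in WT-Flx.

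Non-polyadenylated and nuclear RNAs were listed as a sign of RNA quality. Of 8 tested, 6 were lower and 1 higher as deposited, and after correction 4 were lower and none higher. Meg3, an imprinted long noncoding RNA, held 99424, 91697, 97210, 106027 and 91979 normalised reads in HT-Flx against 160341, 177685, 150161, 125526 and 157512 in WT-Flx. Neat1, the scaffold of paraspeckles, held 2828, 3487, 2729, 3474 and 3725 against 6482, 5637, 8026, 6585 and 5753. Both were lower in every HT-Flx library. The differences were −0.66 and −1.26 for Meg3 and −0.999 and −1.15 for Neat1, as deposited and after correction. Snhg11, a small nucleolar RNA host gene, was lower by 1.12 on the log2 scale as deposited and by 0.47 after correction. Malat1, an abundant RNA of nuclear speckles, was lower as deposited (−0.81) but not after correction (−0.01, adjusted p = 0.962). In the vehicle libraries Meg3 ranged from 84405 to 155066 in HT-Veh and from 103717 to 182599 in WT-Veh, which covers most of the span of the drug groups.

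Serotonin, stress and clock genes were examined for their relation to the drug and to steroid signalling. Of 22 serotonin system genes, 6 were higher (27.3%) and 8 lower (36.4%) as deposited, with a median of 0.11, and 1 was higher and 2 lower after correction. All-gene shares were 33.1% and 30.5%, and 20.7% and 16.7% after correction. Without WT-Flx replicates 2 and 5, which hold little Slc6a4 as given below, 4 were higher and 7 lower and the median turned to −0.16. Htr2c, a serotonin receptor gene, was lower as deposited (−0.67) and not called at 0.13 after correction, but with bins of both GC content and length it was called higher (0.37, adjusted p = 0.002). Maoa, an enzyme that degrades serotonin, changed from −0.89 to −0.09 (adjusted p = 0.526). Nr3c1, the glucocorticoid receptor, held 1358, 1975, 1536, 2429 and 2054 normalised reads in HT-Flx against 3369, 3478, 3592, 3265 and 3252 in WT-Flx. All HT-Flx libraries were lower, by 0.89 as deposited and 1.11 after correction on the log2 scale. Of 21 glucocorticoid response genes 8 were higher and 5 lower, and after correction 5 and 1. Of 20 clock genes 9 were higher and 4 lower, and after correction 4 (20%) and 3 (15%), near the shares of all genes. Per1, a light- and steroid-induced clock gene, was higher by 0.99 and 0.35. The paired repressors of the clock moved apart, Nr1d1 higher by 0.75 and, without passing the test, 0.20, and Nr1d2 lower (−1.08 and −0.61). Of 23 immediate early genes, 11 were higher and 3 lower as deposited but 2 and 2 after correction. Ier2 and Jun were higher as deposited (1.05 and 0.59) and not called afterwards, and Homer1, a postsynaptic scaffold gene, was lower by both (−1.25 and −0.47).

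Of 25 heat shock chaperone genes, 11 were higher (44%) and 10 lower (40%), and after correction 6 (24%) and 7 (28%), beside 33.1%, 30.5%, 20.7% and 16.7% of all genes. The cytosolic HSP90 pair moved in opposite directions. Hsp90aa1, the inducible form, held 11264, 14295, 9448, 19304 and 14222 normalised reads in HT-Flx against 28081, 31197, 30861, 32698 and 31336 in WT-Flx (−1.21 and −0.94). Hsp90ab1, the constitutive form, held 80250, 73453, 67925, 69014 and 61830 against 44566, 45226, 41427, 42982 and 45673 (0.68 and 0.53). Neither pair of groups overlapped as deposited, as was so for 48.5% of all genes, and both differences passed the test by either reading. Both genes were named as called members of the list, so their passing as deposited was fixed by that choice. Among 25 cholesterol genes 13 were higher and 7 lower, and after correction 8 and 1. Dhcr7, the enzyme of a last step of synthesis, was higher by 0.72 as deposited and by 0.49 after correction.

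Beside 33.1% of all genes higher and 30.5% lower as deposited, and 20.7% and 16.7% after correction, interferon and antigen presentation genes had 13 of 33 higher (39.4%) and 5 lower (15.2%), and 6 and 6 after correction (18.2% each). Cell proliferation genes had 6 of 26 higher and 9 lower, and 8 and 3 after correction. Collagen and extracellular matrix genes had 17 of 37 higher and 7 lower, and 5 and 7 after correction. Of 8 erythroid genes 3 were higher and 1 lower, and none was called after correction.

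**Figure D4:**
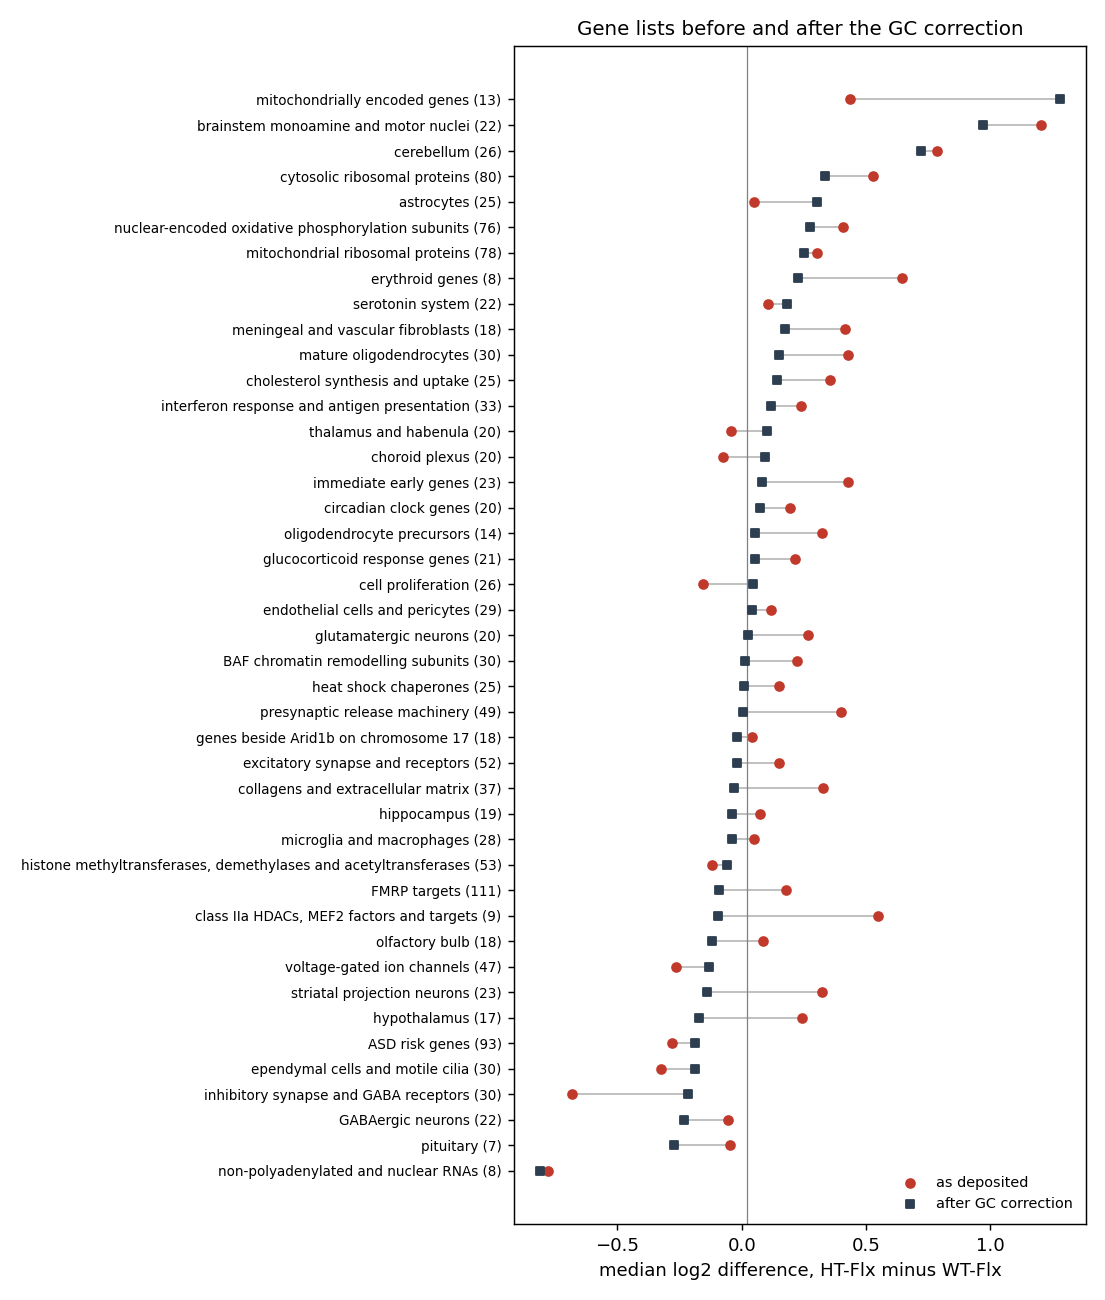
Median log2 difference between HT-Flx and WT-Flx (x axis) over the tested genes of each of 43 lists (y axis, number tested in brackets), as deposited (circles) and after the GC correction (squares), ordered by the latter; the vertical line is the median of all genes as deposited. Mitochondrially encoded genes lie highest and nuclear RNAs lowest after the correction, and 16 of the 43 lists lie on the other side of the median of all genes after it.

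Cell type markers were read because bulk brain mixes cell types, and in such samples fewer cells of a type and less RNA per cell cannot be told apart. All-gene shares were again 33.1% higher and 30.5% lower, and 20.7% and 16.7% after correction. Of 30 mature oligodendrocyte genes 18 were higher and 7 lower, and after correction 9 and 3. Without WT-Flx replicates 2 and 5 the corrected counts were 5 and 3, with a median of 0.06. Of all genes 15.2% were then higher and 10.4% lower. Without HT-Flx replicates 1 and 3 the corrected counts were 9 and 2, with a median of 0.15. Mag, a myelin adhesion protein, held 18106, 16611, 14055, 19497 and 13307 normalised reads in HT-Flx against 8286, 6215, 7760, 9360 and 8322 in WT-Flx (1.03 and 0.43), and Cnp was higher by 0.99 and 0.52. Of 25 astrocyte genes 12 were higher and 9 lower, and after correction 12 and 6. Mlc1, a perivascular astrocyte membrane protein, held 15308, 12595, 11529, 11706 and 11253 against 7172, 5719, 6063, 7017 and 6064 (0.96 and 0.81). Both genes were higher in every HT-Flx library, as was Fgfr3 (0.91 and 0.36). The astrocyte list median was 0.05 as deposited and 0.30 after correction. Only higher members of the oligodendrocyte and astrocyte lists are named here, so they do not stand for their lists. Of 14 oligodendrocyte precursor genes 7 were higher and 5 lower, and after correction 4 and 5. Lhfpl3 was lower as deposited (−0.74) and not called at 0.15 after correction.

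Of 28 microglial genes 8 were higher (28.6%) and 7 lower (25%), and after correction 3 and 3 (10.7% each), all below the shares of all genes (33.1% and 30.5%, 20.7% and 16.7%). Tmem119, a homeostatic marker, was higher as deposited (0.86) and not called after correction (0.16), and Ptprc, which encodes CD45, was lower by both (−1.53 and −0.74). Endothelial and pericyte genes had 12 of 29 higher and 8 lower, and 6 and 3 after correction. The blood-brain barrier transporters moved apart, Slc2a1 higher (0.87 and 0.41) and Slco1a4 lower (−1.17 and −0.37). Meningeal and vascular fibroblast genes had 11 of 18 higher and 2 lower, and 7 and 2 after correction. Choroid plexus genes had 5 of 20 higher and 4 lower, and 3 and 3 after correction. Ependymal and motile cilia genes had 2 of 30 higher and 10 lower, and 2 and 4 after correction, with medians of −0.32 and −0.19. Foxj1, the regulator of motile cilia, was among those higher (1.21 and 0.51), against the direction of the list medians.

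Glutamatergic neuron genes had 7 of 20 higher (35%) and 5 lower (25%), and 1 (5%) and 4 (20%) after correction, beside 33.1%, 30.5%, 20.7% and 16.7% of all genes. Foxp2, a transcription factor of deep cortical and striatal neurons, held 281, 430, 239, 491 and 345 normalised reads in HT-Flx against 870, 951, 907, 538 and 1018 in WT-Flx (−1.28 and −1.11). Slc17a7, the vesicular glutamate transporter of cortex and hippocampus, held 66093, 60585, 55969, 90993 and 41465 against 28662, 33193, 26675, 29210 and 36564. It was higher in every HT-Flx library, by 0.99 as deposited, and did not pass the test at 0.35 after correction (adjusted p = 0.0629). GABAergic neuron genes had 6 of 22 higher and 6 lower, and 5 and 4 after correction. Slc32a1, the vesicular GABA transporter, was higher (0.95 and 0.24), while Vip, an interneuron neuropeptide, was lower as deposited (−1.02) and not called at −0.22 after correction.

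Markers of brain regions differed between libraries of the same group. Of 22 genes of brainstem monoamine and motor nuclei, 9 were higher (40.9%, beside 33.1% of all genes) and 2 lower in HT-Flx, and after correction 3 (13.6%, beside 20.7%) and 1, with medians of 1.21 and 0.97. Of 26 cerebellar genes 9 were higher and 1 lower, and after correction 4 and none, with medians of 0.79 and 0.72. Cbln3, a cerebellar granule cell protein, held 4223, 6075, 6166, 4800 and 12429 normalised reads in HT-Flx but 5424, 167, 5681, 8837 and 809 in WT-Flx. Slc6a4, the serotonin transporter that fluoxetine blocks, held 205, 527, 327, 273 and 657 against 251, 34, 218, 325 and 37. WT-Flx replicates 2 and 5 stood far below the other 8 libraries for both genes. Without those 2 libraries the medians fell to 0.28 for brainstem genes (4 higher and 3 lower, beside 30% and 26.5% of all genes) and to 0.04 for cerebellar genes (7 higher and 1 lower). After correction and without them the medians were 0.09 and 0.01. Th, the rate-limiting enzyme of catecholamine synthesis, was higher by 0.98 and 0.65, and Slc5a7, the choline transporter of cholinergic neurons, was lower (−1.33 and −0.85). Grm4 and Pcp4, expressed in cerebellar neurons and other regions, were higher as deposited (1.21 and 0.66), and Pcp4 remained called after correction (1.13).

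**Figure D5:**
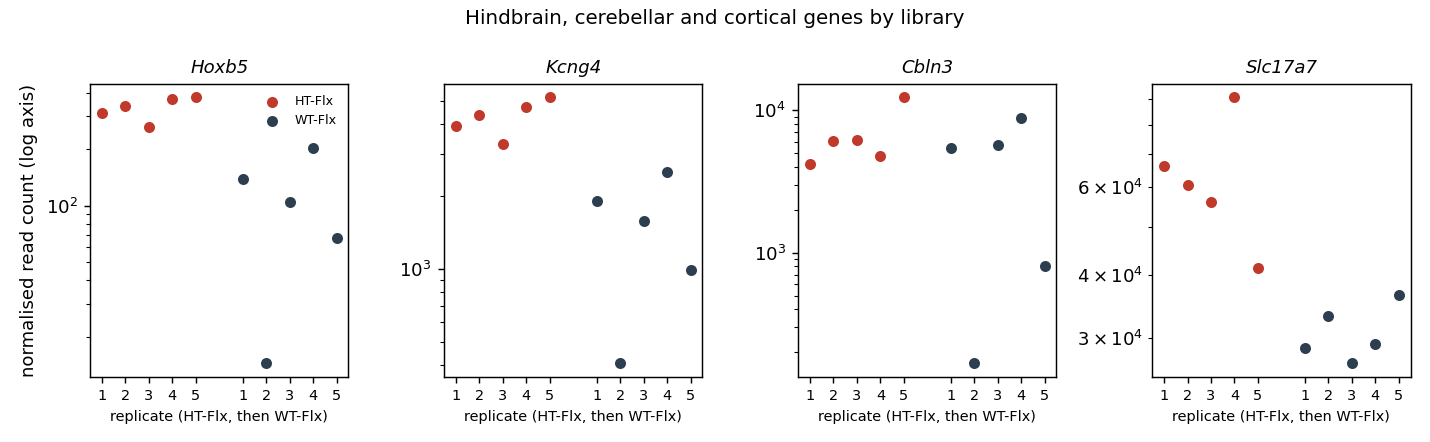
Normalised read counts (log axis) of Hoxb5 and Kcng4 (hindbrain), Cbln3 (cerebellum) and Slc17a7 (cortex and hippocampus) in each HT-Flx and WT-Flx library (x axis, replicates 1 to 5 of each group). WT-Flx replicates 2 and 5 hold the lowest Hoxb5, Kcng4 and Cbln3 of the 10 libraries, and Slc17a7 is higher in each HT-Flx library.

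Forebrain lists are given beside 33.1% of all genes higher and 30.5% lower as deposited, and 20.7% and 16.7% after correction. Striatal projection neuron genes had 6 of 23 higher and 4 lower, and none higher and 4 lower after correction, Pde10a among the latter (−0.76 and −0.90). Without WT-Flx replicates 2 and 5 the corrected medians of the striatal, hypothalamic, olfactory bulb and hippocampal lists turned from below to above that of all genes. The hippocampal median then stood only just above it (0.028 beside 0.026). Thalamic and habenular genes had 4 of 20 in each direction, and 5 higher and 2 lower after correction. Hypothalamic genes had 5 of 17 higher and none lower, and 1 and 2 after correction, hippocampal genes 7 of 19 higher and 4 lower, and 3 and 4 after correction. Olfactory bulb genes had 5 of 18 higher and 4 lower, and 3 and 2 after correction, and pituitary genes 2 of 7 lower, and 1 after correction.

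Whether the genotype difference depended on the drug was tested as an interaction over the 20 libraries of the 4 P120 groups. As deposited, 4852 of 17796 genes (27.3%) passed, 2803 with a more positive and 2049 with a more negative difference under fluoxetine (1502 and 3229 with values scaled to equal sums), and after the GC correction 0 passed with limma (3923 at an unadjusted p under 0.05). With vehicle alone, 0 of 17781 genes differed between HT-Veh and WT-Veh (203 at an unadjusted p under 0.05), and without replicate 2 of each, whose Arid1b levels went against the labels, 0 of 17784 (229). The interaction count was then also 0 (7312 at an unadjusted p under 0.05). The 3 genes with the smallest p in each direction were Zfp516, Arhgef11 and Ufsp1, and Tlr3, Trmt13 and Zfp729a. Trmt13, a tRNA methyltransferase gene, held 72, 67, 75, 93 and 94 normalised reads in HT-Flx against 242, 232, 262, 241 and 229 in WT-Flx, but 104, 140, 181, 252 and 177 in HT-Veh against 266, 182, 125, 130 and 169 in WT-Veh. The drug groups were far apart and the vehicle groups overlapped, giving an interaction of −1.55 (adjusted p = 0.0347). For Mef2a the interaction was −0.85 (adjusted p = 0.037) and for Hdac4 0.61 (adjusted p = 0.0347), and for Arc it did not pass (0.87, adjusted p = 0.0613). The count rested on single libraries: it was 0 without HT-Flx replicate 1, among others given under the processing alternatives.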

How the data were processed

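Whole-brain poly(A) RNA was sequenced by the authors as paired reads and quantified with Salmon 1.1.0 (GC bias option) against GRCm38. The deposited table holds DESeq2-normalised counts (DESeq2 1.30.1), which are not whole numbers and are treated here as signal, so raw depth is unknown and no count test was run. Columns were matched to samples by their titles. Values were analysed as log2(value + 1) for the 17799 of 19737 genes with a mean of at least 10, with limma 3.58.1 in R 4.3.3 (trended prior, Benjamini-Hochberg adjusted p below 0.05). GC content was the median over each gene's transcripts (GENCODE M21, GRCm38). The GC correction subtracted each library's mean deviation in 20 bins. The 43 gene lists and the tests were chosen with earlier results of these data known. Named genes were Arid1b and its neighbours, genes the study discusses, the 12 called protein-coding genes largest in each direction with non-overlapping groups and a mean of at least 50 (6 after correction), up to 4 called list members by smallest p (of which a selection is printed), and 3 per direction for the interaction. Markers in the region and vehicle values were chosen after seeing them. Some genes that met these rules are not reported here. Scripts were tested on simulated data. Alternatives covered filter, pseudocount, scaling, length bins, prior, library weights, pooled fit, replicate block and each library left out.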

Additional observations from a re-analysis of the deposited data

Results flagged for a closer look

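Of 220 groups of 5 values, 9 held 1 library far from the other 4 by Dixon's criterion, and chance gives about 1 group in 20. In HT-Flx these were Postn in replicate 1 (14.1 normalised reads) and Gm21887 in replicate 2 (1470). In WT-Flx they were Casp8ap2, Amy1 and Pde10a in replicate 4 (725, 843 and 5630), Serac1 and Nr1d1 in replicate 5 (712 and 3392), Cnp in replicate 2 (11570) and Lhfpl3 in replicate 1 (1047).

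The genotype difference differed between fluoxetine and vehicle for 4852 genes as deposited and for 0 after the GC correction (limma interaction, 3923 at an unadjusted p under 0.05). Among genes whose interaction is given above, it was past the threshold for Hdac4 (0.61), Mef2a (−0.85), Zfp516 (0.72), Arhgef11 (0.80), Ufsp1 (0.93), Tlr3 (−1.35), Trmt13 (−1.55) and Zfp729a (−2.21). Of 107 named genes, 74 passed as deposited and 0 after the correction, beside 27.3% of all genes as deposited. Most of these genes were named because they differed between HT-Flx and WT-Flx. That difference is part of the interaction, so the count of 74 does not describe dependence on the drug.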

How the results depend on the processing

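The count of 11330 genes became 6659 with the GC correction, 6683 with GC and length bins and 5370 with replicate block and GC correction together. It was 10621 with the replicate block alone and 10500 to 11521 with each library left out. No pairing by replicate number was seen in the values: deviations of same-numbered libraries correlated at −0.19 to 0.01, and no pair correlated best with its own number. Litters were not recorded in the sources used here, so pairing by litter was not tested. After GC correction the count was 5373 to 7050 with each library left out. Arid1b stayed lower and called under every alternative run, −0.45 to −0.38 with each library left out. The interaction count became 0 with the GC correction, with GC and length bins, with the replicate block and GC correction, and without HT-Veh and WT-Veh replicate 2 together (7312 at an unadjusted p under 0.05). With each library left out it ranged from 0 to 7667. It was 0 without HT-Flx replicate 1, WT-Flx replicates 2 or 3, HT-Veh replicates 4 or 5, or WT-Veh replicates 2, 3 or 4. It was 2291 without HT-Flx replicate 3, 3130 without HT-Flx replicate 2, 2912 without WT-Flx replicate 1, 3077 without WT-Flx replicate 5 and 7667 without HT-Veh replicate 1. The cause was not tested. Signs turned with the GC correction (and, at the same value, with the block added) for Zdhhc14 (−0.0451), Arc (−0.0556), Htr2c (0.13), Lhfpl3 (0.15) and Zfp516 (−0.0466). With GC and length bins they turned for Zdhhc14 (−0.0406), Arc (−0.13), Maoa (0.0606), Htr2c (0.37, past the threshold), Kmt2b (−0.00439), Lhfpl3 (0.17) and Zfp516 (−0.0185). With 1 library left out, 0 of 106 other named genes turned sign and 4 of 105 calls were lost. Most of these genes were named because they were called. Where groups do not overlap, leaving out 1 library cannot turn the sign, so the count of 0 says little. The calls lost were those of Arc (in 7 of 10 fits), Gm14434 (in 4), Tlx3 and Iltifb (in 1 each). Scaling to equal library sums cost 4 of the 106 other named genes their call and turned no sign. Raw depth is unknown, so counting error cannot be given for genes of low level.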

Other observations

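The calls also followed level. In the decile of genes with the highest mean level 63.8% were higher and 19.3% lower in HT-Flx, and after the GC correction 42.9% and 13.5%. In the decile with the lowest level 6.12% were higher and 22.2% lower, and after correction 4.04% and 6.69%. By annotated class, 48 of 556 long intergenic noncoding RNAs were higher (8.63%) and 195 lower (35.1%) as deposited. After correction 75 were higher (13.5%) and 90 lower (16.2%). All-gene shares were 33.1% and 30.5%, and 20.7% and 16.7% after correction, so the lower share then lay near that of all genes. The median GC content of the class was 47.4%, beside 51.2% for protein-coding genes. Transcript length showed a smaller gradient: in the shortest decile of genes the median log2 difference was 0.25 and in the longest −0.26, and after correction 0.05 and −0.03.

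The vehicle libraries spread across the levels of the drug groups for several leading genes. Gria2 held 5492, 7175, 8007, 16028 and 15330 normalised reads in HT-Veh against 18962, 15562, 6086, 9446 and 13381 in WT-Veh. Snhg11 held 27811, 40490, 28864, 60708 and 62053 in HT-Veh against 76718, 63061, 39940, 41731 and 56484 in WT-Veh. HT-Veh replicates 4 and 5 stood near the WT-Flx level for both genes, and HT-Veh replicate 1 near the HT-Flx level.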
